A study of Homo sapiens with 4 samples.

Results

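LCN2, S100A7, S100A8, S100A9, SAA1, SAA2, PI3, SLPI, C3 and CFB are 10 genes of epithelial innate defence and of the acute-phase response, and their mRNA was followed in 2 prostate cancer cell lines with and without knockdown of ESS2. They were read by 12 probes, 2 each for C3 and SAA2 and 1 for each other gene, out of 25122 genes with a symbol on the array. The genes were selected on their responses in these same arrays, so their ratios are given as a description, with no test.

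Gene expression was measured with 1-colour Agilent arrays in PC3-shC, PC3-shESS2, DU145-shC and DU145-shESS2 cells, with 1 array per group. PC3 is an androgen-insensitive prostate cancer line derived from a bone metastasis, and DU145 is another androgen-independent prostate cancer line. shC stands for the control shRNA, which targets luciferase according to the sample labels, and shESS2 for the shRNA against ESS2, a nuclear protein that associates with the spliceosome. The labels describe transduced cells, as does the xenograft section of the study's methods. Its cell culture section instead describes stable plasmid transfection of PC3 cells and puromycin selection. Both control groups therefore carry an shRNA, and all cells were grown in RPMI1640 medium with serum. The DU145 groups were assigned by their labels. Each group is 1 sample of 1 shRNA line, and a second shRNA against ESS2 was not analysed here.

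Lipocalin 2, the product of LCN2, withholds iron from bacteria by binding their siderophores. S100A8 and S100A9 form calprotectin, which sequesters zinc and manganese, and S100A7 is psoriasin, a related antimicrobial protein of the skin. SAA1 and SAA2 encode the serum amyloid A acute-phase proteins. PI3 (elafin) and SLPI are inhibitors of neutrophil serine proteases, and C3 and CFB encode complement C3 and factor B, which together form the C3 convertase of the alternative pathway. Epithelial cells switch on many of these genes in response to IL-1, IL-17 and TNF through NF-κB, its nuclear cofactor IκBζ and C/EBP factors.

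The promoter stretches below are shown because NF-κB and C/EBP factors are the textbook regulators of these genes. RefSeq promoter windows of GRCh38.p14, from 250 bases before to 50 bases after the gene start, were given for 5 of the 10 genes, namely LCN2, S100A7, S100A8, S100A9 and CFB, and not analysed here for SAA1, SAA2, PI3, SLPI and C3. Capitals mark the letters that match GGGA, any 4 bases and CC (NF-κB type) or TTNNGNAA (C/EBP type) on either strand, and each stretch reads 5′ to 3′ along the strand of the gene.
LCN2, NF-κB type, plus strand, chr9:128149267-128149296: gcagcactccGGGAATGTCCctcactctcc
LCN2, C/EBP type, plus strand, chr9:128149300-128149327: tccctctgtcTTGCCCAAtcctgaccag
CFB, NF-κB type, plus strand, chr6:31945900-31945929: ggtactgaagGGGAGAGTCCtggacctttg
S100A7, NF-κB type, minus strand, chr1:153460759-153460788: cagcctcctgGGTGTGTCCCacccacctga
S100A9, C/EBP type, plus strand, chr1:153357671-153357698: gggctgggaaTTTCACAAaaaagcagaa

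In LCN2 the NF-κB type match spans bases 176 to 167 before the start, and a second match on the opposite strand overlaps it at bases 175 to 166. The C/EBP type match of LCN2 follows at bases 143 to 136, so LCN2 was the 1 gene of the 5 with both motifs in its window. The CFB stretch lies at bases 185 to 176, that of S100A7 at bases 127 to 118 and that of S100A9 at bases 173 to 166. CFB and S100A7 each held a second NF-κB type match, at bases 111 to 102 and 49 to 40, and S100A8 and S100A9 held a C/EBP type match at or after the start. Both motifs are short and common: 25.6% of 35116 windows held the NF-κB type and 36.8% the C/EBP type, against 3 of 5 windows here for each. A match is a run of letters and not a measured binding site.

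The 4 arrays were of like quality, with 50.8 to 52.6% of the probe spots well above background and 0 saturated. ESS2 signal was 133 in PC3-shC and 53.6 in PC3-shESS2 cells, 2.70-fold lower, and 85.7 in DU145-shC and 17.3 in DU145-shESS2 cells, 5.05-fold lower. Its log2 ratios of -1.43 in PC3 and -2.34 in DU145 became -0.88 and -1.13 with normexp, another background correction that pulls dim signals together, so ESS2 passed 2-fold in PC3 only without it. After each array was scaled to its 75th percentile, the log2 ratios of the reference genes GAPDH and ACTB lay between -0.03 and 0.21 in the 2 lines. A gene was called lower or higher when its scaled ratio passed 2-fold, as 1 array per group allows no test and no error between cultures. The error given beside a log2 ratio is the one the scanner software attaches to each spot, and leaves out the hybridization and the cells. In a bulk sample, fewer cells with a transcript and less transcript per cell cannot be told apart.

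The keratins KRT8, KRT18 and KRT19 and the epithelial adhesion genes CDH1 and EPCAM were well above background on all 4 arrays, whereas KLK3, which encodes prostate-specific antigen, was not on any. LCN2, S100A8, S100A9 and CFB are also expressed by leukocytes, so leukocyte markers were read beside them. Of 17 such markers on the array, 5 were well above background in PC3-shC, 4 in PC3-shESS2 and 6 in each DU145 group, and their summed signal was 443, 235, 372 and 518. PTPRC, which encodes the pan-leukocyte antigen CD45, read between 27.2 and 60 on the 4 arrays, and CSF3R between 34.1 and 61.2, all well above background. Of the neutrophil granule genes, MPO, ELANE, CTSG, CEACAM8 and MMP8 were not well above background on any array, and AZU1 was in DU145 cells alone, at 44.5 and 58.9. In PC3 cells 3 of 6 leukocyte markers compared were more than 2-fold lower with knockdown and 0 higher, with a median log2 ratio of -0.61. Over all genes compared in PC3, 3.69% were lower and 4.08% higher. CD14 read 221 and 54.7, CSF1R was at least 5.27-fold and CD3D at least 2.14-fold lower. CSF1R and CD3D were well above background in PC3-shC cells alone of this pair, and CD14 alone stayed past 2-fold with normexp. In DU145 cells 0 of 7 passed 2-fold. The part of these markers in the results was not tested.

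In PC3 cells, 7 of the 10 genes were more than 2-fold lower with ESS2 knockdown and 0 were more than 2-fold higher. Across all 16764 genes compared, 3.69% were lower by this measure (619 genes) and 4.08% higher (684 genes). With the arrays scaled to their median instead, 850 genes were lower and 491 higher, and 8 of the 10 were lower. The median log2 ratio of the 10 genes was -2.86, beside -0.03 over all genes compared. Since the genes were chosen by these ratios, nothing is read from this contrast.

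LCN2 and S100A8 were lower by nearly the same ratio, and S100A9 by less. LCN2 signal was 40400 in PC3-shC and 4680 in PC3-shESS2 cells, a log2 ratio of -3.23 ± 0.20 (9.38-fold lower). S100A8 signal was 28200 and 3260, with a log2 ratio of -3.23 ± 0.20. S100A9 signal was 50400 and 9730, with a log2 ratio of -2.49 ± 0.20 (5.63-fold lower). All 3 transcripts were still far above background after knockdown. S100A7 signal was 38.5 and 18.3, both well above background, whose limits were 8.94 and 9.02 on these arrays, and its log2 ratio of -1.19 ± 0.28 became -0.40 with normexp background correction.

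Serum amyloid A transcripts went from a strong signal to one not distinguishable from background. SAA1 signal was 9610 in PC3-shC and 3.71 in PC3-shESS2 cells, and as the latter was not well above background, only a bound is available, of at least 1157-fold lower. SAA2 signal was 3220 and 4.70, at least 388-fold lower. A second SAA2 probe, made for another transcript of the gene, read 150 and 2.24, at least 18.1-fold lower. The bounds depend on the background correction, and normexp gave 149-fold for SAA1 and 49.0-fold for SAA2. SAA1 and SAA2 are close paralogs, so part of the signal of one may come from the other, which was not tested.

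The protease inhibitors differed little. PI3 signal was 94800 in PC3-shC and 73300 in PC3-shESS2 cells, a log2 ratio of -0.49 ± 0.20. SLPI signal was 34500 and 23200, a log2 ratio of -0.69 ± 0.20. Neither passed 2-fold. Counted from the lowest ratio among the 15763 genes measured on both arrays, PI3 took place 1852 and SLPI place 1013, whereas C3, S100A8 and LCN2 took places 34, 42 and 43.

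Complement C3 had the lowest ratio among the 8 genes measured on both PC3 arrays. C3 signal was 32900 in PC3-shC and 3350 in PC3-shESS2 cells, a log2 ratio of -3.42 ± 0.20 (10.7-fold lower), and its second probe, which read 8590 and 843, gave -3.47 ± 0.20. The 2 C3 probes thus differed by less than their error. CFB signal was 1200 and 671, a log2 ratio of -0.96 ± 0.20, just short of 2-fold, and it was -1.11 with scaling to the median.

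**Figure D1:**
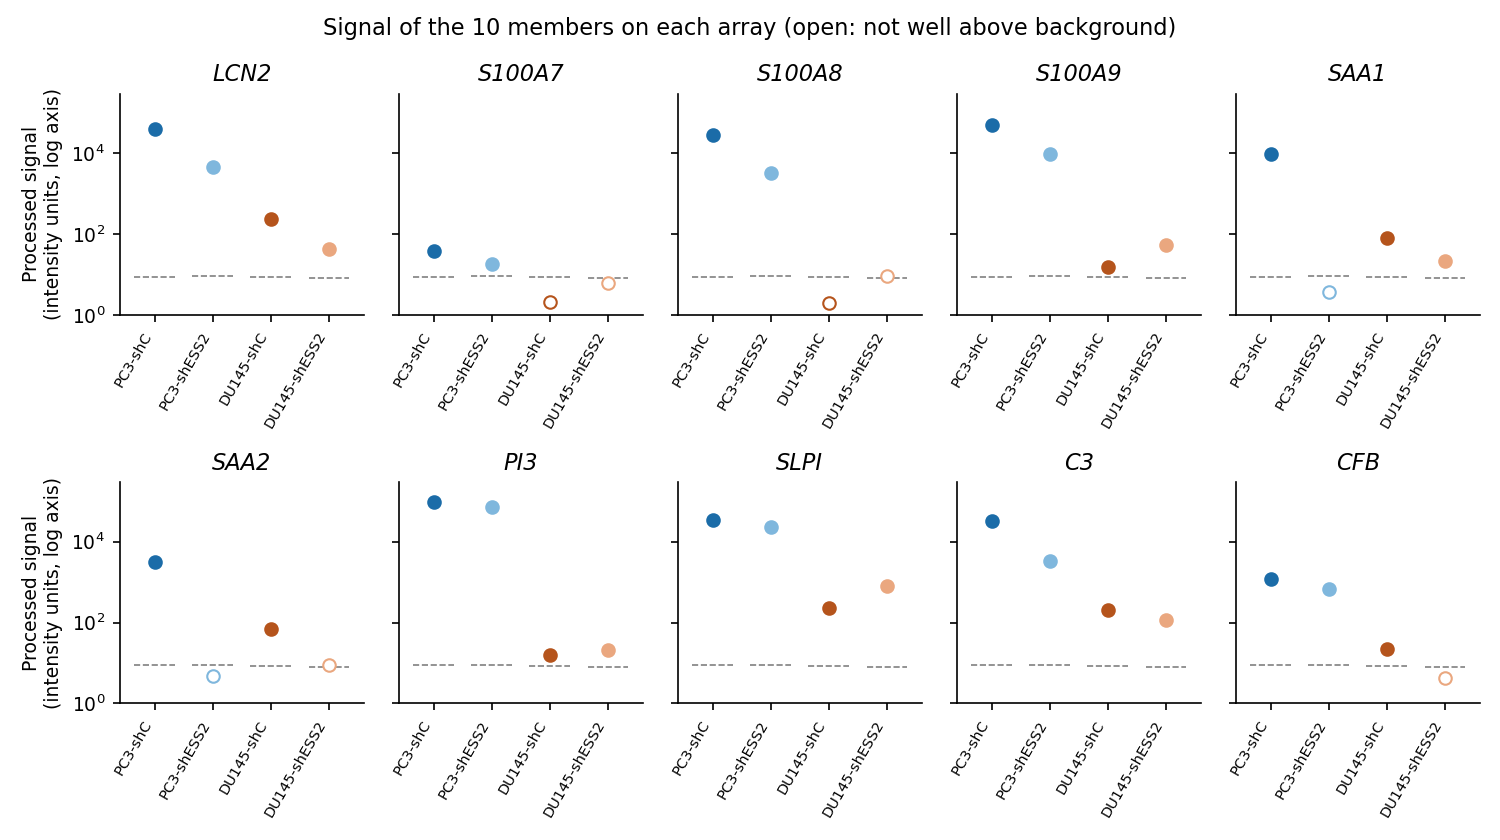
Processed signal of each gene (vertical, log axis) on the 4 arrays (horizontal), 1 point per array with the scanner software's error where it exceeds the point; open points were not well above background, and dashed lines mark the lowest signal well above background on that array. The PC3-shC point is the highest in all 10 panels, and SAA1 and SAA2 drop to open points in PC3-shESS2 cells.

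In DU145 cells the same genes parted into those that were lower and those that were higher with ESS2 knockdown. Of the 10 genes, 8 could be compared, 4 were more than 2-fold lower (LCN2, SAA1, SAA2 and CFB) and 2 more than 2-fold higher (S100A9 and SLPI). Across all 16842 genes compared in this line, 2.41% were lower (406 genes) and 2.45% higher (412 genes). The median log2 ratio of the 8 genes was -1.14, with 2 of the 8 values being bounds, beside -0.01 over all genes. As in PC3 cells, nothing is read from this contrast. With normexp background correction, LCN2 and SLPI alone stayed past 2-fold.

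LCN2 had the 10th lowest ratio of the 15933 genes measured on both DU145 arrays. Its signal was 243 in DU145-shC and 42.8 in DU145-shESS2 cells, a log2 ratio of -2.53 ± 0.21 (5.79-fold lower), and -1.71 with normexp. SAA1 signal was 81.0 and 21.6, a log2 ratio of -1.94 ± 0.25, and -0.85 with normexp. SAA2 signal was 68.8 and 8.75, the latter not well above background, which makes it at least 8.02-fold lower, and its second probe was at background in both groups. With normexp the log2 ratio of SAA2 was -0.96, so neither serum amyloid A gene passed 2-fold in DU145 under it. The DU145 control signal of SAA1 was itself 101-fold below that of PC3.

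S100A9 and SLPI were higher in DU145-shESS2 than in DU145-shC cells. S100A9 signal was 15.3 in DU145-shC and 52.8 in DU145-shESS2 cells, a log2 ratio of 1.76 ± 0.31 (3.38-fold higher), but it was 0.51 with normexp. S100A8, its partner in calprotectin, read 1.99 and 9.32, neither well above background, as did S100A7 with 2.15 and 6.21, so that no fold is given for either. SLPI signal was 231 and 809, a log2 ratio of 1.78 ± 0.20 (3.43-fold higher) that remained 1.54 with normexp. S100A9 and SLPI ranked 48 and 45 from the highest ratio. PI3 signal was 15.7 and 21.4, a log2 ratio of 0.42 ± 0.33.

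Of the complement genes, C3 did not pass 2-fold in DU145 cells and CFB did. C3 signal was 203 in DU145-shC and 119 in DU145-shESS2 cells, a log2 ratio of -0.80 ± 0.21, and the second probe gave -0.67 ± 0.23. CFB signal was 22.2 and 4.23, the latter not well above background, at least 2.78-fold lower, and its log2 ratio was -0.43 with normexp.

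**Figure D2:**
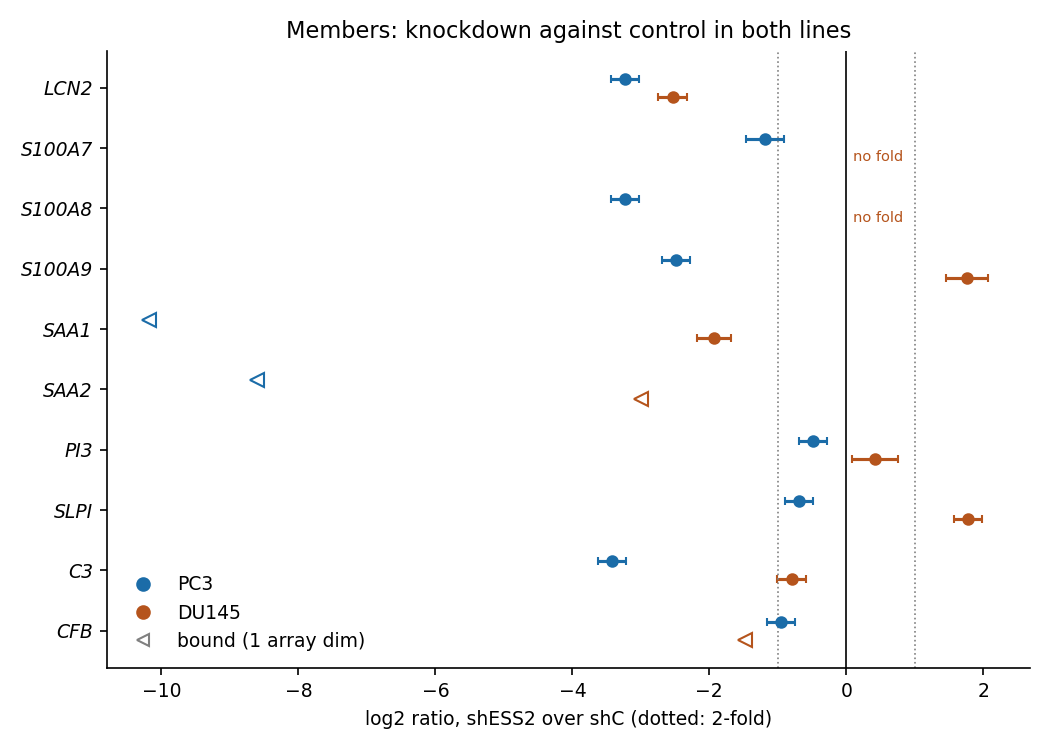
log2 ratio of shESS2 over shC (horizontal) for each gene in PC3 (blue) and DU145 (orange); bars are the scanner software's error, open triangles are bounds where 1 array was not well above background, and dotted lines mark 2-fold. All 10 PC3 values lie below 0, whereas S100A9, PI3 and SLPI lie above 0 in DU145 cells.

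LCN2, SAA1 and SAA2 were more than 2-fold lower in both lines, of which LCN2 alone was so with normexp. Among 15478 genes compared in both lines, 37 were more than 2-fold lower in both, 28 were lower in PC3 and higher in DU145, 13 were higher in PC3 and lower in DU145, and 48 were higher in both. Of the 8 genes described here that could be compared in both lines, 3 were lower in both, and S100A9 was lower in PC3 and higher in DU145, the latter call being lost with normexp. The log2 ratio in PC3 minus that in DU145 was -4.25 ± 0.37 for S100A9, -2.62 ± 0.29 for C3, -2.47 ± 0.29 for SLPI, -0.91 ± 0.39 for PI3 and -0.69 ± 0.29 for LCN2. With normexp these differences were -2.99, -2.85, -2.13, -0.60 and -1.47 in the same order, so that LCN2 and S100A9 moved most. With 1 array per group these differences between lines could not be tested.

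**Figure D3:**
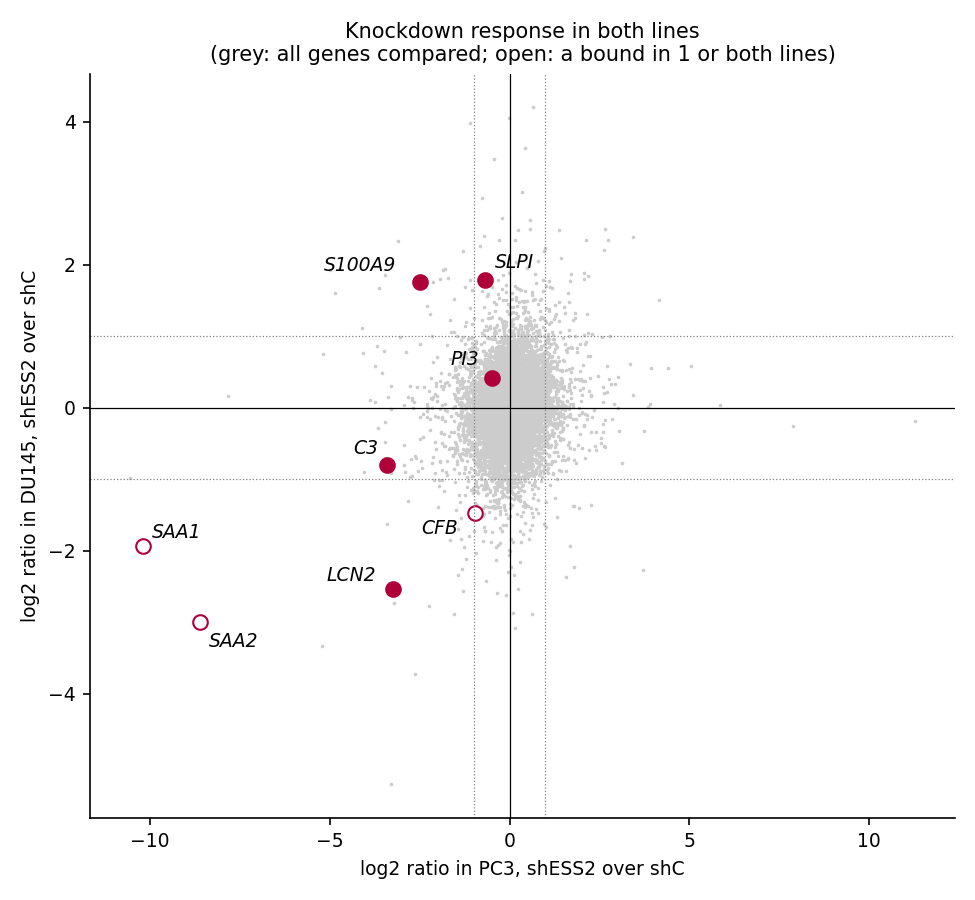
log2 ratio of shESS2 over shC in PC3 (horizontal) against that in DU145 (vertical) for the 15478 genes compared in both lines (grey) and the 8 genes described here (red, open where 1 or both values are bounds); dotted lines mark 2-fold. LCN2, SAA1 and SAA2 lie in the lower left, beyond 2-fold in both lines, and S100A9 in the upper left; with normexp SAA1, SAA2 and S100A9 do not pass 2-fold in DU145.

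At baseline, all 10 genes were more than 2-fold higher in PC3-shC than in DU145-shC cells. Of 17475 genes compared, 24.1% were higher (4209 genes) and 18.6% lower (3249 genes) in PC3-shC cells, and the median log2 ratio of the 10 genes was 7.05, beside 0.20 over all genes. That split rests on the scaling: it was 6061 higher and 2397 lower with scaling to the median, and 2399 higher and 5159 lower in the authors' scaled values, while the 10 genes were higher in both. The arrays of each line shared 1 slide and scan, so line and slide cannot be told apart.

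PI3 and S100A9 had the highest and the next highest ratio of all 14961 genes measured on both control arrays. PI3 was 5136-fold higher in PC3-shC cells (log2 ratio 12.33 ± 0.30), and S100A9 was 2802-fold higher (11.45 ± 0.30). S100A8 was at least 2773-fold higher, being at background in DU145-shC cells. These sizes rest on dim DU145 signals: with normexp the log2 ratios were 10.01 for PI3, 9.14 for S100A9 and 8.66 for S100A8. LCN2 (141-fold), C3 (138-fold), SLPI (127-fold) and SAA1 (101-fold) came next, in places 22, 24, 26 and 34, and their errors of 0.20 to 0.21 on the log2 scale do not set LCN2, C3 and SLPI apart. CFB was 46.0-fold and SAA2 39.8-fold higher, and S100A7 was at least 3.79-fold higher. Normexp brought S100A7 to a log2 ratio of 0.50, CFB from 5.52 to 3.76, SAA1 from 6.66 to 5.84 and SAA2 from 5.32 to 4.40, and the second SAA2 probe was at least 14.8-fold higher.

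The genes with the profile closest to LCN2 over the 4 arrays were found by the root mean square difference of their mean-centred log2 values, over 18128 genes, with the genes described here ranked apart. PTX3, a secreted pentraxin of the acute-phase response, was closest of the rest at 0.72, followed by CXCL1, a neutrophil-attracting chemokine, at 0.81, BST2 at 0.92, ACTG2 at 0.94 and IFI44L at 0.96. PTX3 signal was 6877 in PC3-shC, 3054 in PC3-shESS2, 60.4 in DU145-shC and 10.4 in DU145-shESS2 cells. CXCL1 signal was 200000, 74600, 5130 and 708 in the same order. Both were thus lower with knockdown in each line, as LCN2 was, whereas BST2, ACTG2 and IFI44L were not well above background in DU145 cells. Of the other genes described here, C3 came nearest at 0.79, with PTX3 alone closer, then CFB at 1.02, with 12 genes closer. SAA1 was farthest at 3.26. The measure weighs the difference between the lines most, as the baseline log2 ratio of LCN2 (7.14) is larger than its ratio in either knockdown.

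Position along the chromosome was looked up in the RefSeq order of protein-coding genes after the values were known, and the neighbours were not chosen by the rule for named genes. SAA4, SAA2 and SAA1 lie next to each other on chromosome 11. SAA4, which encodes a constitutive serum amyloid A, read 484 in PC3-shC and 2.05 in PC3-shESS2 cells, at least 58.3-fold lower, and was at background in DU145 cells. The next gene, HPS5, had log2 ratios of -0.48 in both lines. On chromosome 1, S100A12 lies between S100A9 and S100A8, and its signal of 328 in PC3-shC and 54.2 in PC3-shESS2 cells was 6.57-fold lower. S100A6, on the far side of S100A7, read 129000 and 140000, with a log2 ratio of -0.0012. PI3 and SLPI flank SEMG1 and SEMG2 on chromosome 20, both at background on all arrays.

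Of 13 other S100 genes compared in PC3 cells, S100A12 (log2 ratio -2.72) was more than 2-fold lower, the other 12 did not pass 2-fold and 0 were higher, with a median log2 ratio of 0.31. In DU145 cells 12 were compared, 0 were lower and S100A4 was higher, from 877 to 2010 (log2 ratio 1.17). At baseline 8 of 13 were higher in PC3-shC cells, led by S100P (log2 ratio 10.31) and S100A14 (9.43), and 1 was lower. Neither S100P (0.61) nor S100A14 (0.43) passed 2-fold on knockdown in PC3 cells. Among other WFDC-type and Kunitz-type inhibitors, 0 of 7 compared in PC3 were lower and WFDC10B was higher by at least 2.40-fold, and in DU145 WFDC2 (-1.76) and SPINT1 (-1.69) were lower and WFDC11 (1.32) higher, of 6 compared. WFDC10B and WFDC11 lost this call with normexp.

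Of 13 complement components other than C3 and CFB, 4 were more than 2-fold lower in PC3-shESS2 cells and 0 higher, although the median log2 ratio was 0.09. C1S and C1R encode the serine proteases of the C1 complex. C1S signal was 502 in PC3-shC and 15.0 in PC3-shESS2 cells (log2 ratio -5.18), and C1R signal was 2540 and 464 (-2.57). CFD, which encodes the factor D protease that cleaves factor B, read 7650 and 2420 (-1.78), and C5 read 53.8 and 25.8 (-1.18, and -0.59 with normexp). In DU145 cells 0 of 12 passed 2-fold in either direction. Of the complement regulators and receptors, 0 were lower in either line, and 2 of 10 in PC3 and 5 of 14 in DU145 were higher, among them VTN in DU145 (log2 ratio 1.51). CD55 in PC3 (1.05) and CLU in DU145 (1.01) were close to 2-fold. With normexp 1 of 10 in PC3 and 1 of 14 in DU145 were higher, and VTN was at 0.73, while CFI, C5AR1 and ITGAX in DU145 were bounds, from at least 2.19-fold to at least 2.38-fold.

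Other acute-phase genes were mixed in PC3 cells. Of 15 compared, 5 were lower, namely SAA4, TNFAIP6 (-1.67), PTX3 (-1.29), SERPINA1 (-1.29) and HP (-1.28), and FGB (at least 5.88-fold) and IL1RN (2.82-fold) were higher. In DU145 cells PTX3 (-2.56) was lower and HP (2.19) higher, of 8 compared. HP, which encodes haptoglobin, was thus lower in PC3 and higher in DU145 cells, at signals of 17.7 to 82.2. With normexp 3 were lower and 1 higher in PC3 and 0 of 8 passed 2-fold in DU145, where HP was at 0.89 and PTX3 at -0.81. Among other antimicrobial genes CCL20, a chemokine with direct antibacterial action, was lower in both lines, from 9630 to 1130 in PC3 (-3.21) and from 255 to 39.1 in DU145 (-2.73). CAMP, the cathelicidin gene, rose from 16.4 to 110 in DU145 (2.72) and was at background in PC3, ADM was lower in DU145 (-1.41) and DEFB103B higher in PC3 (at least 3.23-fold, but 0.39 as a log2 ratio with normexp), with 6 genes of this list compared in each line.

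Of 11 receptors and partners of these proteins compared in PC3, CFD was lower and LRP2, which encodes the megalin receptor for lipocalin 2, was higher (94.5 to 222, log2 ratio 1.11), and of 13 compared in DU145, C5AR1 alone passed 2-fold (at least 2.19-fold higher). With normexp LRP2 (0.66) and C5AR1 (0.22) did not. MMP9, which encodes the gelatinase that lipocalin 2 binds, had log2 ratios of 0.74 and -0.17, and TLR2 of -0.48 and -0.97.

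Of 17 upstream regulators compared in PC3 cells, 4 were lower and 0 higher, with a median log2 ratio of -0.49. Among them, NFKBIZ, which encodes IκBζ, read 328 and 118 (-1.59). ZC3H12A, which encodes an RNase that degrades inflammatory transcripts, read 3920 and 779 (-2.45), and the epithelial ETS factor EHF read 1020 and 470 (-1.24). The NF-κB subunit gene RELA (0.10) and the C/EBP genes CEBPB (0.29) and CEBPD (-0.50) did not pass 2-fold. In DU145 cells 0 of 17 passed 2-fold, with values of -0.57 for NFKBIZ and -0.75 for ZC3H12A. STAT3, which PC3 cells are known to lack, read 8.87 and 3.94 in PC3 cells, not well above background, and 299 and 443 in DU145 cells.

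The cytokines listed as upstream of these genes moved in both directions, and their part in the results was not tested. IL1B signal was 43800 in PC3-shC and 3170 in PC3-shESS2 cells (log2 ratio -3.91), and IL1A signal was 90.5 and 21.7 (-2.18), while both were at background in DU145 cells. TNF was at least 2.29-fold lower in PC3, from a control signal of 22.8, and at least 4.33-fold lower in DU145, from 34.6. IL6, in contrast, was higher in both lines, from 3600 to 24400 in PC3 (2.64) and from 336 to 1930 in DU145 (2.49). By RT-qPCR, the study found TNF lower but IL6 unchanged in PC3-shESS2 cells, so its IL6 result differs from this array value. In all, 4 of 21 genes of cytokines and their receptors were lower and 3 higher in PC3, the others being IFNGR1 (-1.19), IL1R1 (2.14) and IL6R (at least 4.74-fold higher). In DU145 3 of 20 were lower, TNF with OSM (at least 7.32-fold) and IL36A (at least 2.17-fold), and IL6 alone was higher. With normexp all 3 of these lower calls in DU145 were lost, with log2 ratios of -0.81 for OSM, -0.57 for TNF and -0.36 for IL36A, as were TNF (-0.34), IL1R1 (0.63) and IL6R (0.58) in PC3.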

How the data were processed

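RNA of 4 groups was hybridized to 4 one-colour arrays. The authors deposited the scanner output of Agilent Feature Extraction (12.1.0.3 for PC3, 12.0.3.1 for DU145, per the file headers), in which each spot's intensity is background-subtracted and not scaled between arrays. The authors' value table equals that intensity times 1 constant per array, of 3.52 to 6.17, and served as an alternative. The study names GeneSpring without settings.

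Control spots and spots marked as outliers were left out (5 probes lost of 58201). From the deposited intensity, log2 values were taken and the 75th percentile of each array over its probes was subtracted (174, 189, 148 and 151 in signal for PC3-shC, PC3-shESS2, DU145-shC and DU145-shESS2). The probe with the highest mean stood for its gene. Genes well above background on at least 1 of 2 arrays were compared, a dim value was raised to the lowest signal well above background (8.15 to 9.02), and no fold was given where both were dim. Probes were named by matching their accession to RefSeq GRCh38.p14 (35080 probes, 25122 genes); 85.5% of spots have the same accession in the older annotation of the DU145 files and the newer one of the PC3 files, all 12 probes described here among them. The array's own coordinates were not used.

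The named genes are the 10 with all their probes, ESS2, GAPDH and ACTB, from each list the genes past 2-fold, up to the 4 largest per line, and the 5 closest to LCN2. Some genes of the lists are not reported here. The members and the lists were chosen with earlier results of these data known. Probes spotted 10 times gave a median SD of the log2 ratio of 0.05 between spots in PC3, a lower limit of the error. With 1 array per group no test and no interval could be made within a line, so that 4 arrays set the precision. A paired fit of the response shared by the 2 lines was not made. The calculations were tested on simulated data. The alternatives, 10 planned and 1 added, are described in the closing section. Python 3.11.15, numpy 2.4.6, pandas 2.3.3, matplotlib 3.10.9, R 4.3.3 and limma 3.58.1 (normexp, offset 50, on the median spot signal) were used.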

Additional observations from a re-analysis of the deposited data

Results flagged for a closer look

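The response to ESS2 knockdown had opposite signs in the 2 lines for 3 of the genes. The log2 ratio in PC3 minus that in DU145 was -4.25 for S100A9, -2.47 for SLPI and -0.91 for PI3. With 1 array per group, the difference between the lines was not tested. S100A9 and SLPI passed 2-fold in DU145, S100A9 alone in PC3, and PI3 in neither line. With normexp background correction the differences were -2.99, -2.13 and -0.60, and S100A9 in DU145 (0.51) did not pass 2-fold.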

How the results depend on the processing

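Of 279 values of single genes under the alternatives, 214 stayed within the scanner software's error of the reported value (for a bound, the error of its brighter spot), 65 moved and 0 changed sign, and 55 of 60 counts stayed within 1.5 times. With normexp background correction, 573 genes passed 2-fold in PC3 in place of 1303, 215 in DU145 in place of 818, and 2 of the 10 genes in place of 6 in DU145. Under it S100A9 (0.51), SAA1 (-0.85), SAA2 (-0.96) and CFB (-0.43) no longer passed 2-fold in DU145, nor did S100A7 in PC3 (-0.40) or at baseline (0.50). Of the other listed genes past 2-fold, ESS2 included, 28 of 43 in PC3 and 10 of 20 in DU145 passed it with normexp. With no filter on dim genes, 2634 genes passed 2-fold in PC3 and 2028 in DU145. In PC3, LCN2 ranged from -3.38 to -3.16, S100A8 from -3.38 to -3.09, S100A9 from -2.64 to -2.43 and C3 from -3.56 to -3.32, and in DU145 LCN2 from -2.69 to -1.71 and SLPI from 1.54 to 1.90. CFB in PC3 ranged from -1.11 to -0.88 and passed 2-fold with scaling to the median only. The bound of SAA1 in PC3 was -7.21 with normexp, and that of SAA2 was -5.61 with normexp and -6.39 with the mean of its probes. Without a filter or floor, SAA1 was at -11.46 and SAA2 at -9.54. These are plain ratios to a signal at background and not bounds.

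Scaling to the median moved the median log2 ratio of all genes by -0.15 in PC3 and by 0.37 at baseline. At baseline quantile normalization moved it by -0.15, normexp by -0.11, no filter on dim genes by -0.32 and the authors' values by -0.51. The 75th percentile over spots, in which a probe spotted 10 times counts 10 times, was added after seeing the data and changed no call of the 10 genes. Every call lost with normexp among the 10 genes had a larger signal of at most 81.0. Outside these genes, ESS2 and LRP2 in PC3, with larger signals of 133 and 222, lost it too. The normexp offset of 50 by itself pulls dim signals together, so these losses do not show what limits the arrays. No leave-one-out was possible because each group has 1 array, and no paired analysis over the 2 lines was made.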

Other observations

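Genes of epidermal differentiation are expressed by stratified epithelia alongside S100 genes. Of 22 such genes compared in PC3 cells, 9 were more than 2-fold higher with knockdown, 0 were more than 2-fold lower and the others did not pass 2-fold, with a median log2 ratio of 0.78, beside 4.08% higher over all genes. With normexp 8 were higher. KRT16, a keratin of activated keratinocytes, read 79.8 in PC3-shC and 883 in PC3-shESS2 cells (log2 ratio 3.35). SPRR2A, which encodes a cornified envelope protein, read 45.0 and 475 (3.28). SPRR2E (2.93) and SPRR1B (2.65, and 0.86 with normexp) followed. In DU145 cells 0 of 11 passed 2-fold in either direction. Among the markers of the lines, VIM was higher in PC3-shESS2 cells, from 620 to 4250 (2.66), and EPCAM was lower in DU145-shESS2 cells, from 2120 to 357 (-2.60).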
